A study of Rattus norvegicus with 6 samples.

Results

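Cytochrome P450 genes were followed by family in the livers of rats that had been bled and then given fluid to reach different blood pressures. The genes were chosen by name: rows of the deposited table were matched to rat gene symbols, and symbols made of Cyp, a family number, a subfamily letter and a gene number were kept, leaving out the bile acid genes Cyp7a1, Cyp7b1, Cyp8b1 and Cyp27a1. This gave 45 P450 genes of 7126 distinct symbols and 19345 rows in all, each with 1 row, namely 2 Cyp1, 22 Cyp2, 5 Cyp3 and 10 Cyp4 genes and 6 of other families. The rule used names and no measured value, but it was set with earlier results of these data known. The male Sprague-Dawley rats, aged 90 to 120 days, lost blood from an amputated tail in a model of uncontrolled hemorrhagic shock, and all received Ringer's solution, a balanced salt solution. In the limited group the infusion aimed at a mean arterial pressure of 50 to 60 mmHg, and in the aggressive group at more than 80 mmHg. Of 6 rats assigned per group, livers taken at 330 min gave 3 arrays in each group. Unbled rats were not analysed here, so each value sets one regimen against the other. The labels do not say outright that each array stands for a separate rat, and the p-values measure only the spread between these 6 samples.

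P450 enzymes are heme proteins that insert oxygen into lipophilic compounds, using electrons passed on by the reductase Por or, in mitochondria, by ferredoxin. In liver, members of the Cyp1, Cyp2 and Cyp3 families oxidise drugs, toxins and steroids, Cyp4 enzymes hydroxylate fatty acids and eicosanoids, and other families act on steroid hormones, retinoids and vitamin D. Their transcription is set by ligand-activated receptors, with Ahr acting on Cyp1a, Nr1i3 (CAR) on Cyp2b, Nr1i2 (PXR) on Cyp3a and Ppara on Cyp4a genes, and in rats the sex-dependent pattern of growth hormone release selects male and female forms.

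Promoters of 7 genes are shown. Cyp3a9, Cyp3a18, Cyp4a2 and Cyp4a3 had the largest differences of the Cyp3a and Cyp4a groups. Cyp3a2 and Cyp3a23-3a1 are close relatives of Cyp3a9 and Cyp3a18 on the same chromosome. Cyp26a1 had the largest difference toward lower values outside Cyp3a. Each sequence is the 250 bases before the gene's start in RefSeq, assembly GRCr8, read 5′ to 3′ on the gene's strand, and 40 of the 45 genes had such an entry. Capitals mark AGGTCA and AGTTCA, half-sites that nuclear receptors can bind, on either strand (the reverse complements are TGACCT and TGAACT).
Cyp3a9, chr12:21960161-21960410, minus strand: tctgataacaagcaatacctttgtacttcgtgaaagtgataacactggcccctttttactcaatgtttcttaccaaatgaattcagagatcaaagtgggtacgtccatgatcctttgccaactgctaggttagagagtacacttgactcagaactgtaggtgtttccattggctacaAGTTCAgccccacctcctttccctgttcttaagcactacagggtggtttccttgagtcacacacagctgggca
Cyp3a18, chr12:13994062-13994311, plus strand: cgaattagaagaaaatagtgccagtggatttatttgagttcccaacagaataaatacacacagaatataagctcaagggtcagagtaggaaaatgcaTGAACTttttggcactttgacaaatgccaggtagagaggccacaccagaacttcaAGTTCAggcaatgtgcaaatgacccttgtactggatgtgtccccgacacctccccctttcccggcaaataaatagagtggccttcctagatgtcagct
Cyp3a2, chr12:14343858-14344107, minus strand: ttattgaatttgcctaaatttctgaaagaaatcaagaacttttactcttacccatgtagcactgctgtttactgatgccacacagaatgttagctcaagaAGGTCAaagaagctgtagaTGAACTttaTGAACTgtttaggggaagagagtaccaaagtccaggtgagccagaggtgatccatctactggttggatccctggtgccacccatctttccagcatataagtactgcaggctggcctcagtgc
Cyp3a23-3a1, chr12:14398804-14399053, minus strand: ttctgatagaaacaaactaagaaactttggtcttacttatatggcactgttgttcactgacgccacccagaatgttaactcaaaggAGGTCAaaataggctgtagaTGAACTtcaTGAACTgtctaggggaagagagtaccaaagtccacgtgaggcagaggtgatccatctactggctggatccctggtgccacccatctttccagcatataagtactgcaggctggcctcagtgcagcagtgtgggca
Cyp4a2, chr5:134170909-134171158, minus strand: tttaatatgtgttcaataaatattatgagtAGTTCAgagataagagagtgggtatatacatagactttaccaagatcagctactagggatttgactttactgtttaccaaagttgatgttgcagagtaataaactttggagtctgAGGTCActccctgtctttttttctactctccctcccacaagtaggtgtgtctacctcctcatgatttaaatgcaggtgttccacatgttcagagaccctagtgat
Cyp4a3, chr5:134352237-134352486, minus strand: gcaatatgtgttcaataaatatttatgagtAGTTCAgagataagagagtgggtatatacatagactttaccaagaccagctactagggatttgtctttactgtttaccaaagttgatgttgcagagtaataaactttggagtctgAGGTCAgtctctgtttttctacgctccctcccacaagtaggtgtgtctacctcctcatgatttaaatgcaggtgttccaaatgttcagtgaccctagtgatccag
Cyp26a1, chr1:244883572-244883821, plus strand: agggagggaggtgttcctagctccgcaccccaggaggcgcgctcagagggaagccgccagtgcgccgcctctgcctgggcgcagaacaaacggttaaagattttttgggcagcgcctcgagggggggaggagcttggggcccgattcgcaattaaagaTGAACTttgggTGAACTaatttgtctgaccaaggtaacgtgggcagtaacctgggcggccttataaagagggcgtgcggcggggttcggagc

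The promoters of Cyp3a2 and Cyp3a23-3a1 each held a direct repeat of AGTTCA with 3 bases between, the type of element at which the PXR receptor is known to act, in the 250-base window. It lay 131 to 117 bases before the start of Cyp3a2 and 144 to 130 bases before that of Cyp3a23-3a1. Direct repeats with that spacing, built from AGGTCA or AGTTCA on either strand, were found in 0.0388% of all 33469 promoters of the same length. The Cyp26a1 promoter held a direct repeat of AGTTCA with 5 bases between, 92 to 76 bases before the start, the spacing known for retinoic acid receptors, which 0.0299% of all promoters held. The promoters of Cyp3a9 and Cyp3a18 had single half-sites, 1 and 2 in number, and those of Cyp4a2 and Cyp4a3 had AGTTCA and AGGTCA at the same 2 places and were identical at 236 of 250 aligned positions (94.4%). At least 1 half-site was present in 20 of 40 P450 promoters (50.0%) and in 24.3% of all promoters. These matches are letters in a window, and whether a factor binds there was not measured.

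The deposited values were 1-colour array intensities, processed with RMA by the authors and lying between 13.5 and 57240 with array medians of 212 to 245, and log2 was taken before testing. With 3 arrays in each group, their number sets how precise any value can be. No detection calls were used, and 10 P450 genes lay below the array median on all 6 arrays, among them Cyp1a1, Cyp4a8 and Cyp26b1. Hepatocyte markers (7 genes) were bright, with summed intensities of 254183 to 270905 in limited and 281647 to 291715 in aggressive arrays, and the sums did not overlap. Taken singly, 5 of these genes overlapped between the groups and 2 were lower in each limited array (9.76% of all rows). Their median log2 difference was -0.09. Markers of Kupffer cells and macrophages (8 genes) summed to 38662 to 44096 in limited and 24646 to 29803 in aggressive arrays. Aggressive arrays 1 and 3 carried lung transcripts, with 10 lung genes summing to 4466 and 6091, against 1397 in aggressive array 2 and 1275 to 1542 in limited arrays. Most of the lower sums came from Napsa, at 872 to 1235 in limited and 1034 to 1115 in aggressive arrays, which like Foxj1 did not differ. Sftpc, the gene with the largest difference of the list, had 1247 and 1734 in aggressive arrays 1 and 3. It had 33.7 in aggressive array 2 and 30.3 to 57.0 in limited arrays. In RNA of whole liver, fewer cells of a type and less RNA per cell cannot be told apart. The part of these cell types in the P450 values was not tested.

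Direction varied by family across the 45 P450 genes, as a description that was not put to a test between families. All 5 Cyp3a genes had a log2 difference below 0, that is lower intensity under limited resuscitation, with a median of -0.44. Of the 10 Cyp4 genes, 7 lay above 0, with a median of 0.22. The 22 Cyp2 genes were divided, with 9 above and 13 below 0 and a median of -0.05, and the median over all rows was 0.01.

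0 of the 45 P450 genes passed limma's moderated test at an adjusted p under 0.05 over all rows, against 0.114% of all rows (22 of 19345). At an unadjusted p under 0.05 there were 12 P450 genes, 26.7% of them, against 13.1% of all rows. Of these, 5 were higher under limited resuscitation (11.1%, against 6.86% of all rows) and 7 were lower (15.6%, against 6.19%). For 18 P450 genes (40.0%) the 3 limited arrays lay wholly above or below the 3 aggressive arrays, against 19.8% of all rows and 25.2% of rows at or above the median brightness, where 34 of the 45 P450 genes lay. Limited arrays were above all aggressive arrays for 8 genes (17.8%, against 10.0% of all rows) and below them for 10 (22.2%, against 9.76%). A 2-fold difference was reached by 2 P450 genes, Cyp3a9 and Cyp26a1 (3.81% of all rows). The variance model and the row filter decided the calls. With limma's robust prior and a trend on intensity, 5 of 45 P450 genes passed, against 2.95% of all rows. They were 3 higher genes, Cyp4a2, Cyp4a3 and Cyp2c12 (1.56% of all rows), and 2 lower genes, Cyp3a9 and Cyp3a18 (1.39%). Without rows under the median brightness, 5 of the 34 P450 genes left passed, against 4.99% of those rows. They were 2 higher genes, Cyp4a3 and Cyp17a1 (2.80% of those rows), and 3 lower genes, Cyp3a9, Cyp3a18 and Cyp2d4 (2.19%). With array weights no P450 gene passed, against 0.0414% of all rows higher and 0.0724% lower. Of the 5 higher genes, 2 kept an unadjusted p under 0.05 without limited array 1, limited array 2 or aggressive array 3, 3 kept it without aggressive array 1 or 2, and 4 without limited array 3. Of the 7 lower genes, 5 kept it without limited array 3, and 4 kept it when limited array 1 or 2 or aggressive array 1, 2 or 3 was left out. Of the 12 genes, 5 kept an unadjusted p under 0.05 whichever single array was left out, namely Cyp3a9, Cyp4a2, Cyp4a3, Cyp2d4 and Cyp26a1.

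**Figure D1:**
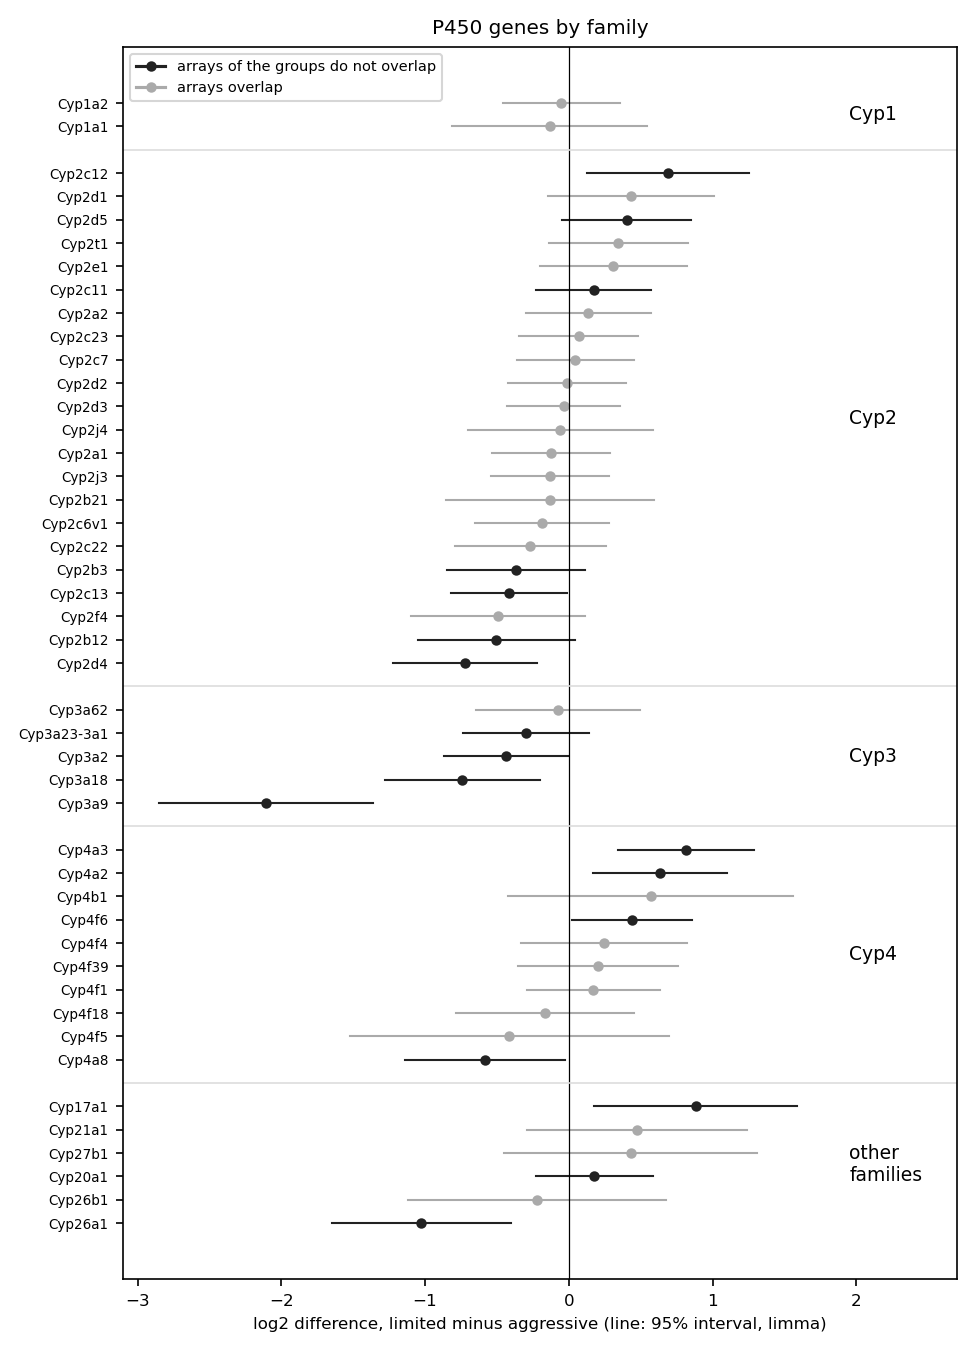
Log2 difference of each of the 45 P450 genes, limited minus aggressive, ordered within families; points are limma estimates, lines are 95% intervals, and black marks the 18 genes whose 3 limited and 3 aggressive arrays did not overlap. Cyp3a9 stands apart at -2.11, all 5 Cyp3 points lie left of 0, and Cyp4a3 and Cyp4a2 lie furthest right among the Cyp4 genes.

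Among the Cyp3a genes, Cyp3a9 had the largest difference of any P450 gene. Cyp3a9, a steroid hydroxylase that is more abundant in female than in male rat liver, had intensities of 667, 332 and 589 in the limited arrays, against 2805, 1764 and 2107 in the aggressive arrays. The lowest aggressive value was above the highest limited value by a wide margin. Its mean was 529 ± 175 under limited and 2225 ± 531 under aggressive resuscitation (SD, n = 3 each), a log2 difference of -2.11 (SE 0.318, 95% interval -2.85 to -1.36), or 4.31-fold higher under aggressive resuscitation. Limma's adjusted p was 0.0797, which missed the threshold, while it was 4.61e-06 with the trended robust prior and 0.000205 without dim rows, meaning those under the median brightness. With any 1 array left out the difference lay between -2.30 and -1.80, and against aggressive array 2 alone, which had no raised lung transcripts, it was -1.80.

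Cyp3a18, a steroid hydroxylase more abundant in males, had 3407, 3597 and 5316 in the limited arrays, against 6695, 6136 and 7383 in the aggressive arrays. Limited array 3 came nearest to the aggressive group, without reaching it. The log2 difference was -0.74 (SE 0.230, adjusted p = 0.266, limma), with an adjusted p of 0.00989 under the intensity trend. Cyp3a2, the main male-specific Cyp3a form of rat liver, was at 22251, 19381 and 25085 in limited arrays, against 30869, 28720 and 30266 in aggressive arrays. These groups were also apart, by a smaller ratio, with a log2 difference of -0.44 (SE 0.184, adjusted p = 0.379, limma). Cyp3a23-3a1, which PXR ligands induce in rat liver, had 7606, 7845 and 7930 in limited arrays, against 10701, 10077 and 8147 in aggressive arrays. Aggressive array 3 lay close to the limited arrays, and the difference of -0.30 had an interval from -0.74 to 0.14. Cyp3a62, a form known mainly from intestine, was dim and overlapped, at 134 to 179 in limited and 125 to 195 in aggressive arrays.

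**Figure D2:**
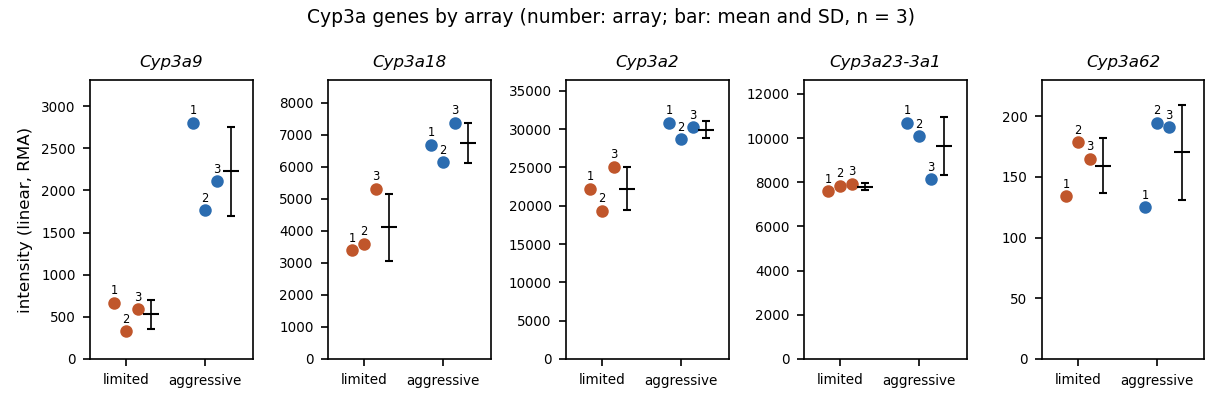
Intensity (linear scale, axes from 0) of the 5 Cyp3a genes on each array, limited left of aggressive, with the array number above each point and the mean and SD (n = 3) beside them. For Cyp3a9 the limited arrays lie between 332 and 667 and the aggressive arrays between 1764 and 2805, while for Cyp3a62 the groups overlap.

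The Cyp3a genes lie in clusters on chromosome 12, and close relatives can share array signal. Probe sequences were not used here, so how far Cyp3a2 and Cyp3a23-3a1, whose promoters were identical at 208 of 238 aligned positions, were measured apart was not tested. Whether the difference of Cyp3a9 was larger than that of its relatives was not tested.

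The Cyp4 family held both of the bright Cyp4a rows, which were higher under limited resuscitation. Cyp4a3, a fatty acid omega-hydroxylase that Ppara ligands induce, had 27250, 24625 and 24397 in limited arrays, against 17518, 13938 and 12284 in aggressive arrays. The log2 difference was 0.82 (SE 0.202, 95% interval 0.34 to 1.29, adjusted p = 0.187, limma), or 1.76-fold, and it passed with an intensity trend (adjusted p = 0.000654) and without dim rows (adjusted p = 0.0167). Cyp4a2, its near relative, which also forms a vasoconstrictor product of arachidonic acid in rat kidney, had 21670, 25093 and 28912 in limited arrays, against 16169, 14490 and 17876 in aggressive arrays. No limited array of either gene reached down to the aggressive group. For Cyp4a2 the log2 difference was 0.64 (SE 0.198, adjusted p = 0.267, limma; 0.00764 with an intensity trend), and against aggressive array 2 alone the differences were 0.79 for Cyp4a2 and 0.87 for Cyp4a3. Since these genes are near copies of each other, their rows may report overlapping RNA and are not independent.

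Cyp4a8, a kidney form, ran the other way but was among the dimmest rows, at 53.1, 33.7 and 33.0 in limited arrays, against 54.7, 61.7 and 58.8 in aggressive arrays. Limited array 1 nearly reached the aggressive group, and the log2 difference was -0.58 (adjusted p = 0.365, limma). Of the 6 Cyp4f genes, whose products hydroxylate leukotrienes and other lipids, only Cyp4f6 had groups that did not overlap. That share (16.7%) is near the 19.8% of all rows without overlap. Cyp4f6 had 1877, 1657 and 1604 in limited arrays, against 1164, 1338 and 1282 in aggressive arrays, a log2 difference of 0.44 (adjusted p = 0.363, limma). The other Cyp4f genes overlapped, with Cyp4f1 at 0.17, Cyp4f4 at 0.24, Cyp4f39 at 0.20, Cyp4f18 at -0.17 and Cyp4f5 at -0.41. Cyp4b1, which is abundant in lung, had 306, 222 and 474 in limited arrays, against 131, 211 and 357 in aggressive arrays. Of the aggressive arrays, Cyp4b1 was lowest in array 1 and highest in array 3, both of which had raised lung transcripts, and their part in its values was not tested.

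In the Cyp2 family, forms selected by sex had estimates in both directions, and none of them passed over all rows in the main analysis. Cyp2c12, the female-specific steroid sulfate hydroxylase of rat liver, had 4875, 4569 and 4344 in limited arrays, against 2393, 3900 and 2469 in aggressive arrays. The groups were apart, with a log2 difference of 0.69 (SE 0.239, adjusted p = 0.303, limma), and the adjusted p was 0.0242 with an intensity trend. Aggressive array 2, the array without raised lung transcripts, was the highest of its group, and against it alone the difference was 0.24. Cyp2c13, a male-specific form, had 19678, 17104 and 17926 in limited arrays, against 24416, 25174 and 23231 in aggressive arrays. Each limited array was below each aggressive array, the direction opposite to that of Cyp2c12, and the log2 difference of Cyp2c13 was -0.41 (adjusted p = 0.372, limma). Cyp2c11, the most studied male-specific form, had 18247, 18965 and 18602 in limited arrays, against 17957, 15572 and 16109 in aggressive arrays. Its groups were apart but close, with a difference of 0.17 and an interval of -0.23 to 0.57. The male form Cyp2a2 differed by 0.14 (interval -0.30 to 0.57) and the forms more abundant in females, Cyp2a1 and Cyp2c7, by -0.13 (interval -0.53 to 0.28) and 0.05 (interval -0.36 to 0.45). The rats were male, yet the row of the female-specific Cyp2c12 lay far above the median of every array (212 to 245). Relatives of the Cyp2c group share much sequence, and signal of one form on the row of another was not tested, so what this row reported is not known.

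Cyp2d4, which is known from brain as well as liver, lay near the array median, at 242, 252 and 183 in limited arrays, against 394, 316 and 401 in aggressive arrays. The log2 difference was -0.72 (SE 0.213, adjusted p = 0.246, limma), it passed without dim rows (adjusted p = 0.0376), and it was -0.50 against aggressive array 2 alone. The bright Cyp2d rows lay above 0 or close to it. Cyp2d1, the debrisoquine hydroxylase, had 20674, 29334 and 23973 in limited arrays, against 16549, 15117 and 23744 in aggressive arrays, with overlap and a difference of 0.43 (interval -0.15 to 1.01). Cyp2d5 was higher in all limited arrays, at 13187, 13129 and 16776, against 11589, 10702 and 10155 in aggressive arrays (difference 0.40, adjusted p = 0.429, limma). Cyp2d2 and Cyp2d3 differed by -0.01 and -0.04, with intervals of -0.42 to 0.40 and -0.43 to 0.36.

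Cyp2e1, the ethanol-inducible form of pericentral hepatocytes, had 14584, 12886 and 16301 in limited arrays, against 14690, 10051 and 10875 in aggressive arrays. Aggressive array 1 lay within the limited range, and the difference was 0.31 (interval -0.20 to 0.82). Of the Cyp2b genes, Cyp2b3, a constitutive form, was lower in each limited array, most of all in array 1, at 8127, 11573 and 10799, against 12331, 12777 and 13895 in aggressive arrays (difference -0.37, adjusted p = 0.497, limma). Cyp2b12 was dim, at 53.9 to 57.2 in limited and 61.1 to 103 in aggressive arrays, and Cyp2b21 was dim with overlap. The classical phenobarbital-inducible forms Cyp2b1 and Cyp2b2 were not analysed here. Cyp2f4, a lung and liver form, had 619, 635 and 514 in limited arrays, against 629, 786 and 1141 in aggressive arrays. It was highest in aggressive array 3, where lung transcripts were also highest. In aggressive array 1, which also had raised lung transcripts, it was lower than in array 2, which had none raised. Against aggressive array 2 alone the log2 difference was -0.42, and the part of lung transcripts in its values was not tested. The groups overlapped, with a difference of -0.49 (interval -1.10 to 0.11). The remaining Cyp2 genes, Cyp2c6v1, Cyp2c22, Cyp2c23, Cyp2j3, Cyp2j4 and Cyp2t1, overlapped between groups, with differences between -0.27 for Cyp2c22 and 0.35 for Cyp2t1.

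In the Cyp1 family, both genes overlapped. Cyp1a2, a pericentral enzyme that oxidises caffeine, had 8811, 8477 and 8781 in limited arrays, against 9124, 8227 and 9737 in aggressive arrays. The difference was -0.05 with an interval of -0.46 to 0.35, so a large change in either direction lay outside it. Cyp1a1, the classical Ahr-induced gene, was dim, at 51.7 to 80.6 in limited and 49.9 to 92.4 in aggressive arrays.

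Among the other families, Cyp26a1 and Cyp17a1 stood out. Cyp26a1, the enzyme that degrades retinoic acid, had 107, 160 and 141 in limited arrays, against 201, 313 and 324 in aggressive arrays. Each limited array was below each aggressive array, with a log2 difference of -1.03 (SE 0.266, 95% interval -1.65 to -0.40, adjusted p = 0.199, limma). The adjusted p was 0.0576 with an intensity trend, the row was among those removed as dim, and against aggressive array 2 alone the difference was -1.22. Cyp26b1, which also degrades retinoic acid, was dim and overlapped.

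Cyp17a1, the hydroxylase and lyase of androgen synthesis, had 571, 500 and 348 in limited arrays, against 345, 183 and 250 in aggressive arrays. The lowest limited and the highest aggressive value nearly met. The log2 difference was 0.88 (SE 0.301, adjusted p = 0.299, limma; 0.0471 without dim rows). It ranged from 0.66 to 1.11 with any 1 array left out. The steroid hydroxylase Cyp21a1 and the vitamin D hydroxylase Cyp27b1 were dim with overlap, at 0.48 and 0.43, and Cyp20a1, an orphan, differed by 0.18.

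**Figure D3:**
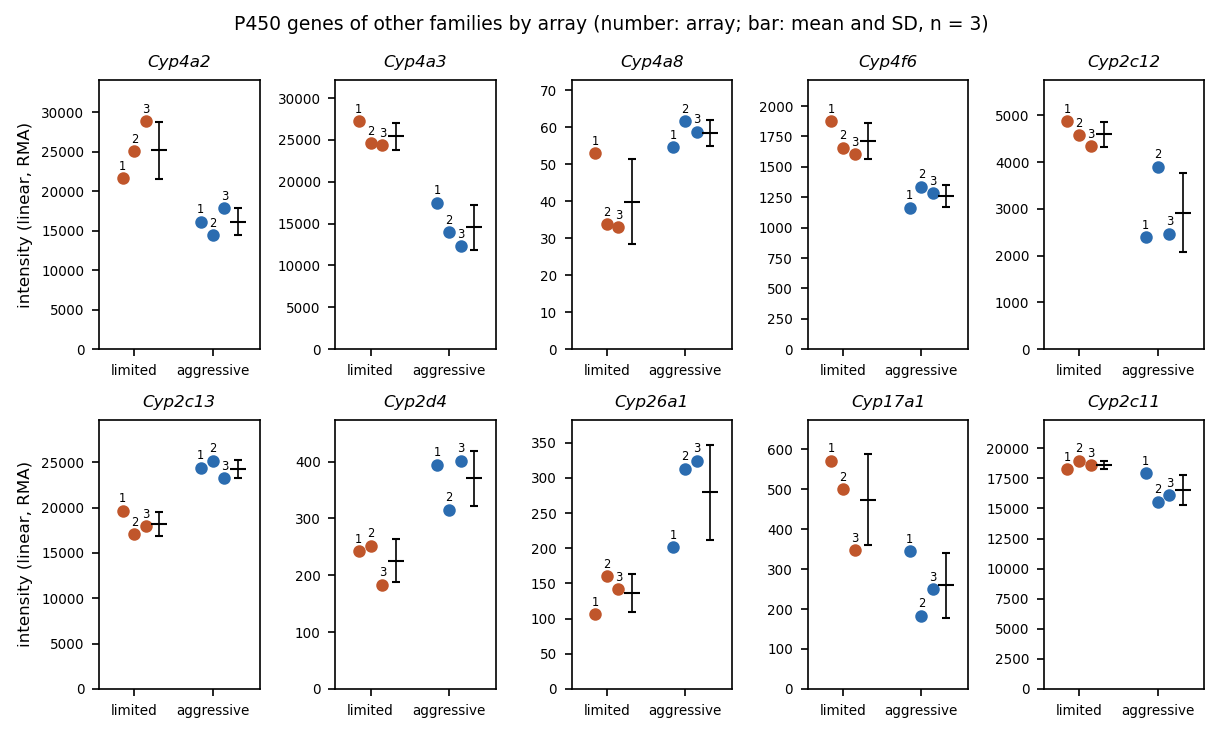
Intensity (linear scale, axes from 0) of 10 P450 genes outside Cyp3a on each array, limited left of aggressive, with the array number above each point and the mean and SD (n = 3) beside them. Cyp4a2, Cyp4a3, Cyp4f6, Cyp2c12, Cyp17a1 and Cyp2c11 are higher in each limited array, and Cyp4a8, Cyp2c13, Cyp2d4 and Cyp26a1 are lower.

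Receptors and liver transcription factors that act on P450 genes were measured for 22 of 23 listed genes. Their median log2 difference was 0.36, against 0.01 over all rows, with 15 above and 7 below 0. None passed over all rows by limma. At an unadjusted p under 0.05, 9 were higher and 1 was lower under limited resuscitation, against 6.86% and 6.19% of all rows. The list was fixed with earlier results of these data known, so its counts are a description and not a test of the list. Nr1i3, the CAR receptor, had 656, 779 and 626 in limited arrays, against 297, 387 and 363 in aggressive arrays, a log2 difference of 0.98 (adjusted p = 0.141, limma). Rxra, the shared partner of CAR, PXR and Ppara, averaged 1881 ± 457 under limited and 1014 ± 100 under aggressive resuscitation (SD, n = 3 each). Cebpa, a hepatocyte factor that acts on many P450 genes, had 4437, 5792 and 4079 in limited arrays, against 1531, 1097 and 1901 in aggressive arrays, with an adjusted p of 0.0829 (limma). For all 3 of these genes each limited array was above each aggressive array. Nr1i2, the receptor for Cyp3a genes, overlapped, with a difference of 0.36 (interval -0.18 to 0.90), as did Ppara, at 0.31 (interval -0.24 to 0.85). These 2 receptors are named for their role and not by the naming rule.

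Target genes of the same receptors outside the P450 family were mixed. Their lists were also fixed with earlier results of these data known, so the counts are a description. Of 11 measured Ppara targets, 4 were higher at an unadjusted p under 0.05 and 0 lower, against 6.86% and 6.19% of all rows. By limma 0 passed over all rows, and the median was 0.02. Angptl4, a lipase inhibitor, differed by 1.24, Pex11a, a peroxisome protein, by 0.82, and Cpt2, of mitochondrial fatty acid import, by 0.80, the same direction as Cyp4a2 and Cyp4a3. Of 10 measured targets of CAR and PXR, 0 were higher and 1 was lower at that threshold, against 6.86% and 6.19% of all rows, with a median of 0.10. A count of 1 in 10 is near that background. The lower gene was Gadd45b, a stress-induced growth regulator, at -0.89 (adjusted p = 0.206, limma), while the drug exporter Abcb1a, at 0.51, and the glucuronidating enzyme Ugt2b1, at -0.35, overlapped between groups. The 2 measured Ahr targets split, with the quinone reductase Nqo1 at 0.45 and the phenol-conjugating enzyme Ugt1a6 at -0.66.

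Electron donors and enzymes of heme supply were measured for 12 of 16 listed genes, with a median of 0.15. This list, too, was fixed with earlier results of these data known, so its counts are a description. At an unadjusted p under 0.05, 3 were higher and 0 lower, against 6.86% and 6.19% of all rows, and 0 passed over all rows by limma. Cpox, the coproporphyrinogen oxidase of heme synthesis, had 4788, 6479 and 5499 in limited arrays, against 3094, 3077 and 2936 in aggressive arrays, a log2 difference of 0.87 (adjusted p = 0.161, limma). Alad, the aminolevulinate dehydratase of heme synthesis, differed by 0.57 and Cyb5a, the cytochrome b5 that can pass electrons to P450 enzymes, by 0.55, each without overlap of the groups. Alas1, the rate-limiting enzyme of heme synthesis, overlapped and lay below 0, at -0.30 (interval -0.76 to 0.17), and the reductase Por was at 0.23 (interval -0.27 to 0.74); both are named for their role.

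**Figure D4:**
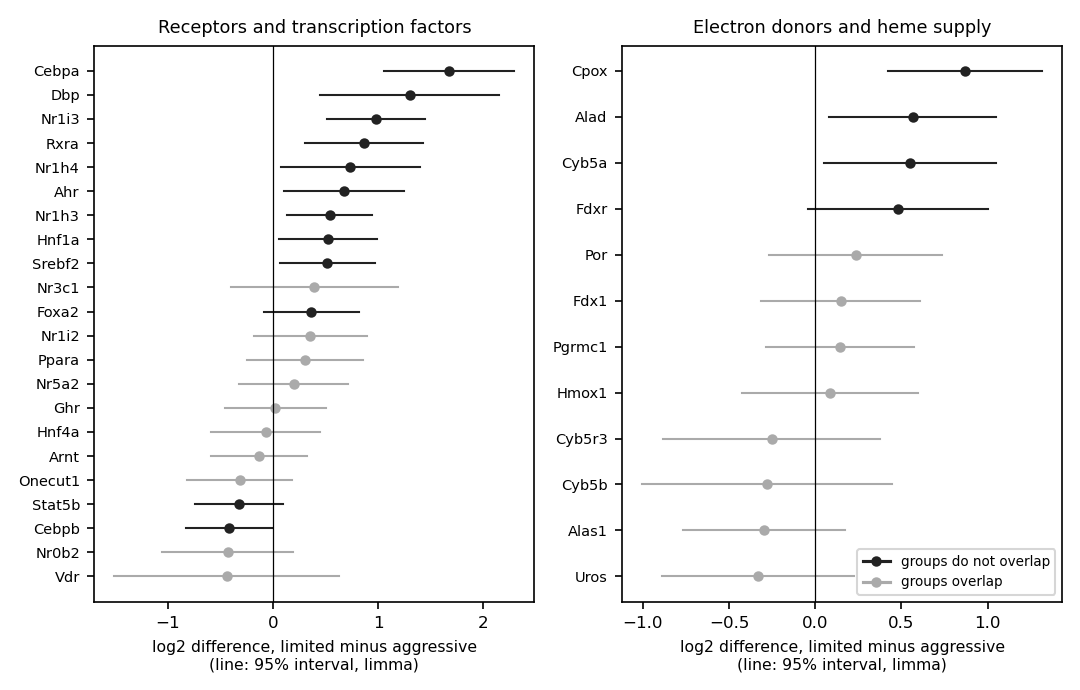
Log2 difference, limited minus aggressive, of 22 receptors and transcription factors (left) and 12 electron donors and heme supply genes (right); points are limma estimates, lines are 95% intervals, and black marks genes whose groups did not overlap. Cebpa, at 1.68, and Cpox, at 0.87, lead their panels, and Alas1 lies at -0.30.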

How the data were processed

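Liver RNA of 3 limited and 3 aggressive samples was hybridised to 1-colour Cy3 NimbleGen arrays, per the labels' protocols. The deposited values are linear intensities, 1 per RefSeq transcript and array, made by the authors with RMA, per the submitters' processing notes; the version of RMA, the array's build and filters on probes are not stated by those notes. RMA normalises between arrays, so a change shared by most transcripts would not show. Unversioned accessions were matched to symbols in a RefSeq table of GRCr8, naming 7223 of 19345 rows with 1 symbol each; P450 genes of the other rows were not analysed here.

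Log2 values were tested over all rows with limma 3.58.1 in R 4.3.3 (lmFit, eBayes, two-sided, Benjamini-Hochberg, threshold 0.05), limited minus aggressive, and the code was checked on simulated data. The members and lists were chosen with earlier results of these data known. The naming rule took P450 genes that passed, up to 8 per direction by size of difference among non-overlapping genes at an unadjusted p under 0.05, the 3 brightest per family and a fixed set (28 genes), and the 3 related genes per list with the smallest p; the other 17 P450 genes are named to account for every member. No pairing was used, since the labels do not say that a shared replicate number pairs animals. Over all rows, deviations of samples that share a number correlated at -0.06, -0.05 and 0.05, which cannot exclude a pairing that affects some genes. One gene of the related lists is not reported here and was left out of its list's counts. Alternatives are given in the closing section. Figures used matplotlib 3.10.9.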

Additional observations from a re-analysis of the deposited data

How the results depend on the processing

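The count of 22 rows that passed became 483 without dim rows, 570 with the trended robust prior, 0 with the replicate number as a block, 0 without aggressive arrays 1 and 3, and between 0 and 2 with any 1 array left out. For the P450 genes, 0 passed in the main analysis, 5 without dim rows, 5 with the intensity trend and 0 with any 1 array left out; no P450 gene passed with a second quantile normalisation, centred arrays, array weights, the block or limma's treat with a 1.2-fold minimum. The counts of 5 higher and 7 lower P450 genes at an unadjusted p under 0.05 were 2 to 4 and 4 to 6 with any 1 array left out, 4 lower genes under the block, and 3 and 3 without aggressive arrays 1 and 3, which takes the spread of the 1 aggressive array left to equal that of the limited arrays. The block rests on numbers that the data did not show to pair the samples.

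Family medians kept their sign for Cyp3 (-0.53 to -0.34), Cyp4 (0.08 to 0.31) and the other families (0.14 to 0.37) with any 1 array left out, while those of Cyp2 (-0.074 to 0.031) and Cyp1 (-0.24 to 0.04) crossed 0, Cyp2 only without limited array 1. Without dim rows, where fewer genes are left, the medians were -0.59 for Cyp3, 0.44 for Cyp4 and 0.53 for the other families, and against aggressive array 2 alone they were 0.20 for Cyp1, 0.40 for Cyp4 and 0.090 for the other families; the cause was not tested. Of 358 values of named P450 genes under alternatives, 9 changed sign, each of a gene that overlapped between the groups. Cyp1a2 was 0.012 after a second quantile normalisation, 0.079 against aggressive array 2 alone and -0.12 to 0.0041 with any 1 array left out (above 0 without aggressive array 3). Cyp1a1 was 0.32 against aggressive array 2 alone and -0.36 to 0.083 with any 1 array left out (above 0 without limited array 3, at 0.0023, or aggressive array 3). With any 1 array left out, Cyp2c7 was -0.0019 to 0.10 (below 0 without limited array 2) and Cyp26b1 -0.66 to 0.054 (above 0 without aggressive array 2). Cyp27b1 was -0.10 against aggressive array 2 alone. Each P450 gene had 1 row, so averaging rows of a gene could not alter a value and was not run. Signal over background was not known, which limits what the dim rows can show.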

Other observations

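Cyp51, the sterol demethylase of cholesterol synthesis, falls outside the naming pattern of the 45 genes. Its intensities were 1554, 1825 and 1776 in limited arrays, against 1733, 1311 and 1274 in aggressive arrays, with overlap and a log2 difference of 0.27 (interval -0.21 to 0.74).

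The summed intensities of liver zone markers overlapped between the groups. The pericentral list (6 measured genes) summed to 16719 to 18625 in limited and 15535 to 17807 in aggressive arrays, with a median log2 difference of 0.17, and the periportal list (8 genes) to 79956 to 92399 in limited and 73703 to 92633 in aggressive arrays, with a median of 0.10. At an unadjusted p under 0.05 the periportal list held 1 higher gene, the adhesion protein Cdh1, at 0.79 (adjusted p = 0.212, limma). The pericentral list held 0, and of all rows 6.86% were higher and 6.19% lower at that threshold. Counts of 0 and 1 in lists this small are near that background. In the pericentral list the groups did not overlap for Rhbg, an ammonium transporter named after its values were seen. It had 699 to 728 in limited and 858 to 882 in aggressive arrays (difference -0.28, adjusted p = 0.517, limma). Limited arrays lay wholly below aggressive arrays for 9.76% of all rows. Adrenal cortex markers (2 measured genes, Star and Hsd3b1) summed to 213 to 343 in limited and 225 to 359 in aggressive arrays, with overlap, and the part of such tissue in the Cyp17a1 values was not tested.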
